A study of Mus musculus with 6 samples.

Results

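Chemokine mRNA was examined in mouse gastrocnemius, a calf muscle rich in fast fibres, for 10 genes chosen by symbol: Ccl2, Ccl6, Ccl7, Ccl9, Cxcl1, Cxcl9, Cxcl10, Cxcl12, Cxcl14 and Cx3cl1. All 10 were found once each among the 57010 genes of the deposited table, and 7 of them passed the expression filter described with the test. The muscles came from NSG mice (NOD/SCID/IL2Rγ-null), a strain without mature T, B or natural killer cells that keeps monocytes, macrophages and granulocytes. Every mouse, in both groups, carried a subcutaneous xenograft on the left flank, grown with Matrigel from MDA-MB-231 cells, a line of human triple-negative breast cancer, with a knockdown of Rab27a, a small GTPase of vesicle secretion. For radiotherapy (n = 3), only the tumour was irradiated, with 10 Gy in a single dose at a volume of about 800 mm3, and the gastrocnemius of the other side was taken 3 days later. The control group (n = 3) had the same tumour, and its labels say only that the treatment was control. The labels give neither sex nor age, nor whether the 3 samples of a group came from 3 mice, so every p-value measures only the spread between these samples, which may be technical. No group without a tumour or with an unmodified tumour was analysed here.

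Chemokines are small secreted proteins that bind G protein-coupled receptors on leukocytes and guide their movement. Inflammatory chemokines such as Ccl2 are induced in resident and recruited cells by cytokines through NF-κB, and Cxcl9 and Cxcl10 are induced by interferons. Homeostatic chemokines such as Cxcl12 are made continuously by stromal and endothelial cells. In injured muscle, Ccl2 and its relatives are known for drawing monocytes from the blood.

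Promoter sequences show which of the inducible chemokines carry the letters of those pathways next to their start. Sequences of the 250 bases before the gene start were in the RefSeq table (build GRCm38.p6) for 8 of the 10 genes. Ccl2 and Ccl7 had no sequence there and were not searched, so nothing is known here of their promoters. The submitters name mm9 as the build of the deposited data, so the coordinates below belong to GRCm38.p6 alone. Each promoter was searched on both strands for the κB consensus, found in 7.25% of 32851 promoters of that length, for the interferon-stimulated response element (GAAA, any 2 bases, GAAA), found in 2.98%, and for the STAT element TTCNNNGAA, found in 7.02%. Cxcl10, an interferon-induced chemokine, held both the κB consensus and the interferon element. The others printed are Cxcl1, which held the κB consensus, and Cxcl14, which held the interferon element without κB. Capitals mark matches to the κB consensus and to the interferon element, and matches that overlap run together.
Cxcl10, chr5:92348973-92349112, minus strand: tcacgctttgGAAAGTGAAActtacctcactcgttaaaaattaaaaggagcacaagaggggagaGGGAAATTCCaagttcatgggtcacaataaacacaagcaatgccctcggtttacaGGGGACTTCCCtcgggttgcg
Cxcl1, chr5:90891164-90891194, plus strand: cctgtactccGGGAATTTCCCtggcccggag
Cxcl14, chr13:56296704-56296733, minus strand: gtgtccacagGAAACAGAAAagcagcaccc
Ccl9 held the κB consensus, Cxcl14 also held TTCNNNGAA, and Ccl6, Cx3cl1, Cxcl9 and Cxcl12 held none of the 3 in this window. These matches are descriptions of letters and not of binding.

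Libraries are called control 1 to 3 and radiotherapy 1 to 3 by the replicate numbers of the labels, and 2 of them stood apart in leukocyte transcripts. The 13 monocyte and macrophage markers, all of which reached 1 TPM (transcripts per 1000000, a share of all transcripts corrected for length) in some library, summed to 407, 57.8 and 40.6 TPM in controls 1 to 3 and to 38.5, 47.9 and 215 TPM in radiotherapy 1 to 3. The 8 neutrophil markers gave 1637 TPM in control 1, 278 and 284 TPM in the other controls, 151 and 156 TPM in radiotherapy 1 and 2, and 681 TPM in radiotherapy 3. None of the 10 lymphocyte and natural killer markers reached 1 TPM, and Cd3e, Cd8a, Ncr1 and Nkg7 were listed at 0 in all 6 libraries. Skeletal fibre markers, the check of the labelled tissue, summed to between 146846 and 156965 TPM in controls and between 73889 and 123839 TPM after radiotherapy. Schwann cell markers were highest in radiotherapy 3, at 611 TPM against 34.0 to 190 TPM elsewhere, and adipocyte markers in radiotherapy 1, at 2393 TPM against 348 to 1039 TPM. Red blood cell markers gave 3352 to 7203 TPM in controls and 930 to 1618 TPM after radiotherapy. The part of all these cells in the chemokine values was not tested. TPM holds no information on depth, so the number of reads behind a low value is unknown.

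The comparison of radiotherapy with control asked whether irradiation of a tumour was followed by a different chemokine profile in a muscle outside the beam. For each of the 10 chemokines the libraries of the 2 groups overlapped, and for all but Cxcl14 and Cx3cl1 the SD of the controls exceeded the difference between the group means. The 10 genes summed to 151, 49.8 and 35.6 TPM in controls 1 to 3 and to 46.3, 49.6 and 107 TPM in radiotherapy 1 to 3. Control 1 held the highest value of 7 of the 10 genes, and control 3 the lowest of 7. Of the 7 chemokines that passed the filter, 5 were highest in control 1. Among all genes that passed it, 17.3% were highest in control 1 and 14.7% lowest in control 3. Control 1 and radiotherapy 3 thus had the highest sums, and they lie in different groups.

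**Figure D1:**
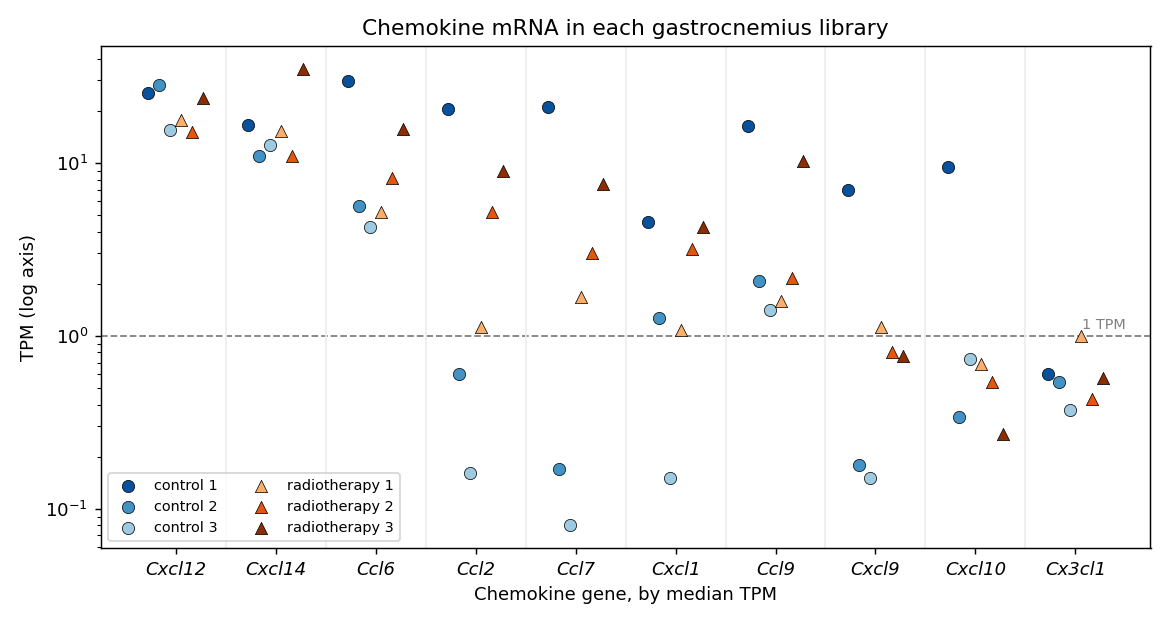
TPM (log axis) of the 10 chemokine genes, ordered by median, in the 3 control (circles) and 3 radiotherapy (triangles) libraries, with a dashed line at 1 TPM. Control 1 is the highest point for Ccl2, Ccl6, Ccl7, Ccl9, Cxcl1, Cxcl9 and Cxcl10, and the groups overlap for every gene.

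The test was limma on log2(TPM + 1), fitted over the 11375 genes that reached 1 TPM in 3 or more of the 6 libraries, with p-values adjusted by the Benjamini-Hochberg method over all of them. None of the 7 tested chemokines passed an adjusted p of 0.05, where 0% of all tested genes passed, and none had an unadjusted p under 0.05, where 3.82% of tested genes did. The groups overlapped for all 10 chemokines, while they were apart for 9.24% of tested genes. Of the 7 log2 fold changes (radiotherapy minus control), 4 were positive and 3 negative, with a median of 0.42 beside −0.11 for all tested genes. The median of the 7 was 0.55 after median-of-ratios scaling, 0.74 without control 1, −0.10 without control 2, −0.20 without control 3 and −0.03 without radiotherapy 3.

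Cxcl9, Cxcl10 and Cx3cl1 were the genes largely under 1 TPM. Cxcl9 was under it in 4 of 6 libraries, and Cxcl10 and Cx3cl1 in 5 of 6 each. These 3 did not pass the filter and have no test. Ccl2 and Ccl7 were under 1 TPM in controls 2 and 3, and Cxcl1 in control 3. Cxcl12, Cxcl14, Ccl6 and Ccl9 exceeded 1 TPM in every library.

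Ccl2 and Ccl7, the monocyte chemoattractants that bind Ccr2, had the widest spread. The level of Ccl2 was 20.5, 0.60 and 0.16 TPM in controls 1 to 3 and 1.13, 5.22 and 8.99 TPM in radiotherapy 1 to 3. Control 1 lay above all radiotherapy libraries and the other controls lay below them, so the groups overlapped. The log2 fold change was 0.58 (SE 1.01, 95% interval −1.70 to 2.85, limma adjusted p = 0.980). Ccl7 gave 20.9, 0.17 and 0.08 TPM in controls and 1.67, 3.02 and 7.52 TPM after radiotherapy, the same order of libraries as for Ccl2. Its log2 fold change was 0.57 (SE 1.02, 95% interval −1.74 to 2.88, limma adjusted p = 0.980). Ccl2 and Ccl7 are neighbouring genes on mouse chromosome 11, and their ratio in a library ran from 0.677 to 3.53 while each level varied at least 128-fold across libraries.

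The values of Ccl2 and Ccl7 turned on control 1. Without it the control mean was 0.38 TPM for Ccl2 and 0.125 TPM for Ccl7. The radiotherapy means were 5.11 ± 3.93 and 4.07 ± 3.06 TPM (SD, n = 3). All 3 radiotherapy values of both genes lay above the 2 remaining controls. Both genes were under 1 TPM in those 2 controls, and the filter was kept on all 6 libraries. Without control 1, only radiotherapy libraries brought them to the filter level. The separation and p-values without control 1 are therefore descriptions and carry no support. Radiotherapy lay wholly above the controls in 5.56% of tested genes in that comparison, and Cxcl9 was the other of the 10 for which it did. The log2 fold changes without control 1 were 1.90 (SE 0.52) for Ccl2 and 2.003 (SE 0.41) for Ccl7, with unadjusted p-values of 0.00377 and 0.000505, and neither passed (limma adjusted p = 0.753 and 0.319), where 0.00879% of tested genes did. Cxcl1 was the other of the 10 with an unadjusted p under 0.05 there, in the direction that 1.97% of tested genes shared. Outside the 10, the ligands Cxcl13 and Ccl12 also had one (limma unadjusted p = 0.00606 and 0.00837). Without control 3 the log2 fold changes of Ccl2 and Ccl7 were −0.20 and −0.17. The cells that hold these transcripts cannot be read from a whole muscle, and more cells of a type cannot be told apart from more RNA per cell.

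Cxcl1, which attracts neutrophils through Cxcr2, followed a similar order at lower levels. It was at 4.57, 1.27 and 0.15 TPM in controls 1 to 3 and at 1.08, 3.19 and 4.28 TPM in radiotherapy 1 to 3. Its highest value was in control 1, only 1.07-fold above radiotherapy 3, and its lowest in control 3. The log2 fold change was 0.55 (SE 0.55, 95% interval −0.68 to 1.79, limma adjusted p = 0.977). It was 1.15 without control 1 (limma adjusted p = 0.949) and 0.01 without control 3.

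Ccl6 and Ccl9, chemokines of myeloid cells that bind Ccr1, were present in every library. Ccl6 was at 29.8, 5.62 and 4.27 TPM in controls and at 5.17, 8.22 and 15.8 TPM after radiotherapy. Control 1 and radiotherapy 3 were its highest libraries and the groups overlapped, with a log2 fold change of −0.06 (SE 0.64, 95% interval −1.49 to 1.38, limma adjusted p = 0.995) that turned to 0.06 after median-of-ratios scaling. Ccl9 was at 16.4, 2.07 and 1.41 TPM in controls and at 1.59, 2.16 and 10.2 TPM after radiotherapy. The same pair of libraries stood above the other 4, and the log2 fold change was −0.16 (SE 0.77, 95% interval −1.90 to 1.57, limma adjusted p = 0.991). Without control 1 the values were 0.74 for Ccl6 and 0.73 for Ccl9, neither past the test (limma adjusted p = 0.961 each).

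Ccl9 kept a nearly fixed proportion to the summed macrophage markers. A large part of that sum was 1 gene, Lyz2, with 198 of 407 TPM in control 1 and 115 of 215 TPM in radiotherapy 3. The proportion to each single marker was not computed. Per 100 TPM of summed monocyte and macrophage markers, Ccl9 measured 4.04, 3.58 and 3.47 in controls 1 to 3 and 4.13, 4.51 and 4.75 in radiotherapy 1 to 3. This proportion varied 1.37-fold over the 6 libraries, whereas the level of Ccl9 varied 11.7-fold. The proportion of Ccl6 varied 2.35-fold, from 7.32 in control 1 to 17.2 in radiotherapy 2. Those of Ccl2 and Ccl7 varied 27.7-fold and 32.0-fold, with the highest proportion in radiotherapy 2, at 10.9 and 6.31, and the lowest in control 3, at 0.394 and 0.197. Ccl2 and Ccl7 in radiotherapy 2 were therefore high relative to a macrophage level close to that of controls 2 and 3.

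**Figure D2:**
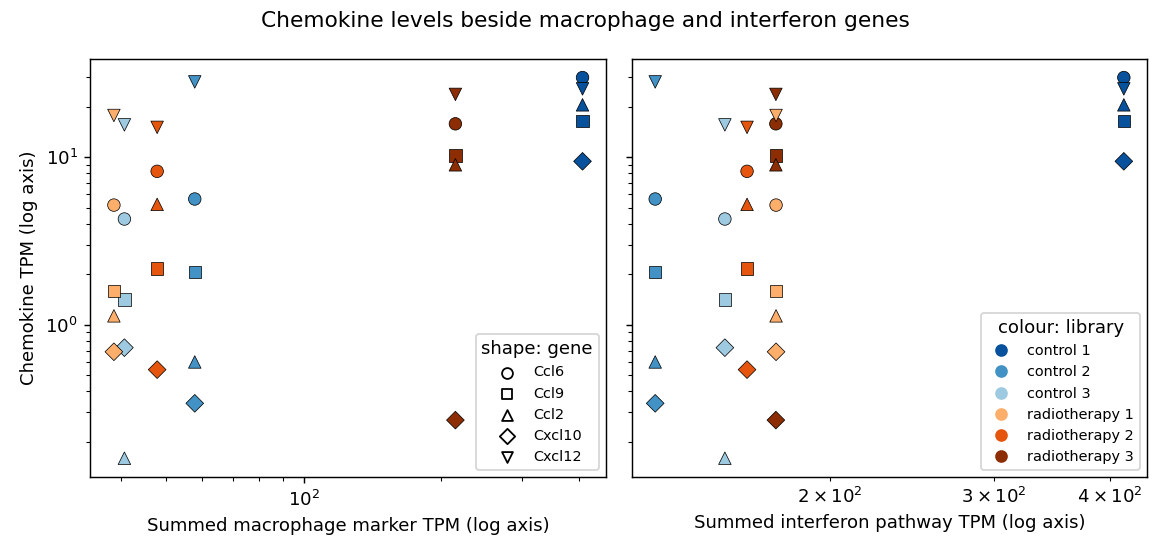
TPM of Ccl6, Ccl9, Ccl2, Cxcl10 and Cxcl12 (log axis, by shape) in each library (by colour) against the summed TPM of 13 monocyte and macrophage markers (left, log axis) and of 24 interferon pathway genes (right, log axis). Ccl6 and Ccl9 are highest where macrophage markers are highest, Cxcl10 stands out only in control 1, and Cxcl12 stays between 15.0 and 28.1 TPM.

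Cxcl9 and Cxcl10, ligands of Cxcr3 that draw activated T and natural killer cells, were high in 1 library. Cxcl10 was at 9.43, 0.34 and 0.73 TPM in controls 1 to 3 and at 0.69, 0.54 and 0.27 TPM in radiotherapy 1 to 3. Control 1 was 12.9-fold above the next library, and the other 5 libraries lay together under 1 TPM. Cxcl9 was at 6.98, 0.18 and 0.15 TPM in controls and at 1.12, 0.80 and 0.76 TPM after radiotherapy. Control 1 was 6.23-fold above radiotherapy 1, and the radiotherapy libraries lay between control 1 and the other controls. Radiotherapy 3, the second library in macrophage markers, did not share the high Cxcl9 and Cxcl10 of control 1: its Cxcl10, at 0.27 TPM, was the lowest of all. The ratio of Ccl2 to Cxcl10 was 2.17 in control 1 and 33.3 in radiotherapy 3.

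Of the other ligands, Ccl5, a T cell and monocyte attractant named here after its values were seen, was likewise high in that library, at 14.5 TPM in control 1, 0.17 and 0 TPM in controls 2 and 3, and 0.42, 0.28 and 0.76 TPM after radiotherapy.

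Genes of the interferon pathway were highest in the same library. The 24 listed genes summed to 414, 130 and 154 TPM in controls 1 to 3 and to 175, 163 and 175 TPM in radiotherapy 1 to 3. Of the 23 that were tested, 20 were highest in control 1, while 17.3% of all tested genes were. Isg15, a ubiquitin-like protein induced by interferon, was at 77.3, 13.2 and 19.6 TPM in controls and at 22.7, 29.4 and 19.4 TPM after radiotherapy. Irf7, a transcription factor of the interferon response, was at 85.7, 5.52 and 13.7 TPM in controls and at 12.5, 16.5 and 13.9 TPM after radiotherapy. Interferon gamma itself, Ifng, was listed at 0 in all 6 libraries, and Jak1, the kinase of interferon receptors, had a log2 fold change of −0.37 (SE 0.28). None of the 23 passed (lowest limma adjusted p = 0.977), with 11 positive and 12 negative values and a median of −0.01, which was 0.12 after median-of-ratios scaling. Without control 1, 19 of the 23 were positive and the median was 0.38, beside −0.11 for all tested genes. The median of the 23 was −0.36 without control 2 and −0.16 without control 3. Because 20 of the 23 were highest in control 1, leaving it out raises their values. The counts without control 1 are therefore descriptions and carry no support.

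**Figure D3:**
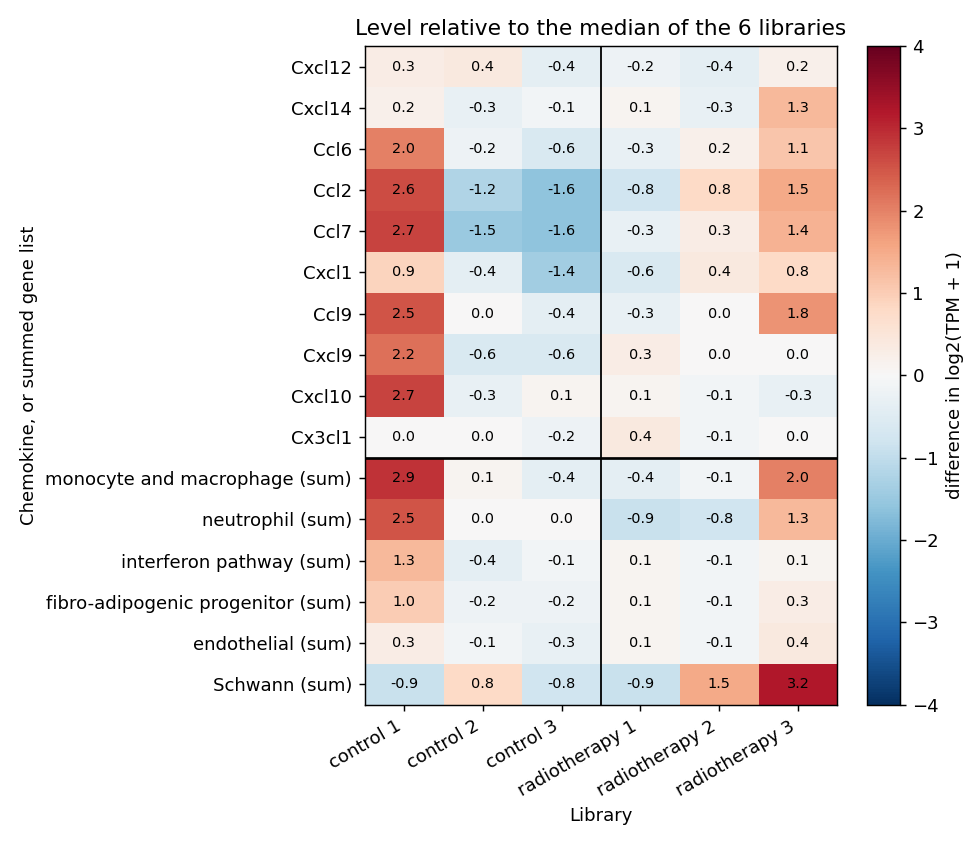
Difference of log2(TPM + 1) from the median of the 6 libraries, for the 10 chemokines (above the line) and for the summed TPM of 6 gene lists (below it), with 1 column per library. Control 1 is high for 7 chemokines and for macrophage, neutrophil and interferon genes; radiotherapy 3 is high for Ccl2, Ccl6, Ccl7, Ccl9, Cxcl1 and Cxcl14 but not for Cxcl9 or Cxcl10.

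Cxcl12 and Cxcl14, chemokines of stromal cells, had the highest median levels and the narrowest spread among the chosen chemokines that were tested. This ranking did not extend to tested ligands outside that choice. There, Ccl27a had a higher median than Cxcl12 and Ccl19 a higher median than Cxcl14, each with a narrower spread. Cxcl12, which binds Cxcr4 and the scavenger Ackr3, was at 25.5, 28.1 and 15.6 TPM in controls 1 to 3 and at 17.7, 15.0 and 23.6 TPM in radiotherapy 1 to 3. Its values lay within 1.87-fold, and the libraries of both groups were interleaved. The means were 23.0 ± 6.60 TPM in control and 18.8 ± 4.40 TPM after radiotherapy (SD, n = 3 each), a log2 fold change of −0.26 (SE 0.30, 95% interval −0.93 to 0.41, limma adjusted p = 0.979). Cxcl14 was at 16.5, 10.97 and 12.7 TPM in controls and at 15.2, 10.9 and 35.0 TPM after radiotherapy. Radiotherapy 3 was 2.12-fold above the next library, and the other 5 lay between 10.9 and 16.5 TPM. The log2 fold change of Cxcl14 was 0.42 (SE 0.39, 95% interval −0.47 to 1.32, limma adjusted p = 0.977), and without radiotherapy 3 it was −0.03.

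Cx3cl1, a membrane-bound chemokine of endothelium and neurons that is shed by Adam10 and Adam17, was low throughout. It was at 0.60, 0.54 and 0.37 TPM in controls and at 1.00, 0.43 and 0.57 TPM after radiotherapy. Radiotherapy 1 was its highest library, neither control 1 nor radiotherapy 3 stood out, and the groups overlapped. Its means were 0.503 ± 0.119 and 0.667 ± 0.297 TPM (SD, n = 3 each).

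By median over the 6 libraries the levels ran from Cxcl12 (20.7 TPM) and Cxcl14 (13.96 TPM) through Ccl6 (6.92 TPM), Ccl2 (3.18 TPM), Ccl7 (2.35 TPM), Cxcl1 (2.23 TPM) and Ccl9 (2.12 TPM) to Cxcl9 (0.78 TPM), Cxcl10 (0.615 TPM) and Cx3cl1 (0.555 TPM). The ranges of every pair of neighbours in this order overlapped. Within libraries, Ccl6 exceeded Ccl2 and Ccl9 exceeded Cxcl9 in 6 of 6, and Cxcl12 exceeded Cxcl14 in 5 of 6. The order of Ccl7 and Cxcl1, of Cxcl9 and Cxcl10, and of Cxcl10 and Cx3cl1 held in only 3 of 6. Cxcl1 exceeded Ccl9 in only 1 of 6, radiotherapy 2, although its median was the higher. Cxcl12 made up 56.3% of the summed TPM of the 10 in control 2 and 16.9% in control 1, where Ccl6, Ccl7 and Ccl2 made up 19.7, 13.8 and 13.5%.

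**Figure D4:**
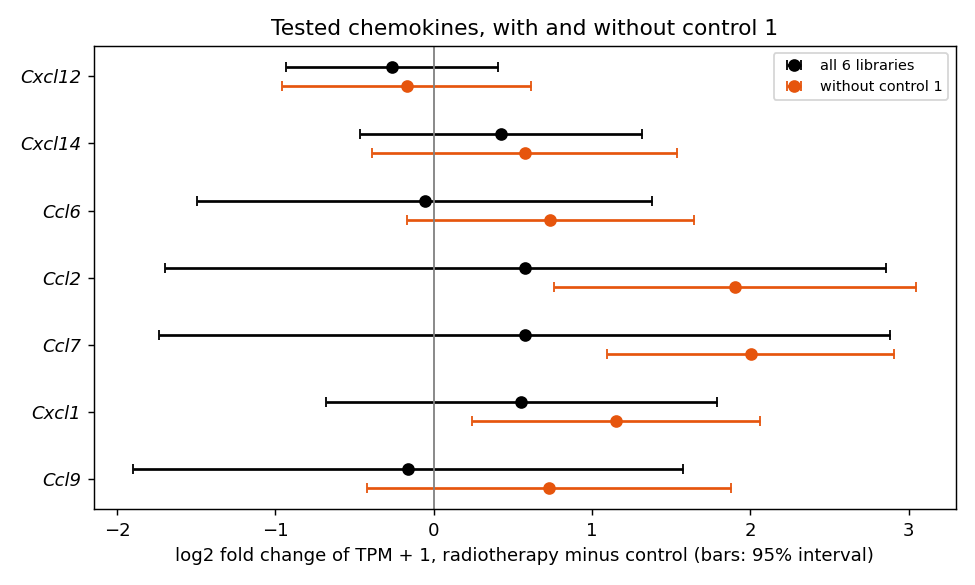
Log2 fold change of TPM + 1 (radiotherapy minus control) with its 95% limma interval for the 7 tested chemokines, over all 6 libraries (black) and without control 1 (orange). With all libraries each interval contains 0; without control 1 those of Ccl2, Ccl7 and Cxcl1 lie above 0, although none passed after adjustment over all tested genes.

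Receptors for these ligands were scarce. Of 18 signalling receptors 5 reached 1 TPM in any library and 1 was tested, and the list summed to 16.0, 2.62 and 1.39 TPM in controls 1 to 3 and to 1.87, 1.65 and 4.91 TPM in radiotherapy 1 to 3. Ccr2, the receptor of Ccl2 and Ccl7, was at 3.48 TPM in control 1, 0.35 TPM in radiotherapy 3 and at most 0.10 TPM in the other 4 libraries. Cxcr2, the neutrophil receptor of Cxcl1, was at 4.17 TPM in control 1, 2.11 TPM in radiotherapy 3 and between 0.50 and 0.86 TPM elsewhere. Ccr2 and Cxcr2 were thus highest in the library with the highest levels of their ligands. Cxcr4, the receptor of Cxcl12 and the tested gene of the list, was at 1.92, 1.00 and 0.42 TPM in controls and at 0.76, 0.24 and 1.06 TPM after radiotherapy (log2 fold change −0.29, SE 0.30, limma adjusted p = 0.977). The value was −0.030 without control 1 and −0.55 without control 3. Of the receptors named because they pair with the 10 ligands, after their values were seen, Ccr1 reached 1.99 TPM in control 1 and at most 0.39 TPM elsewhere, Cx3cr1 reached 0.20 TPM, and Cxcr3 was at 0.03 TPM in control 1 and listed at 0 in the other 5 libraries.

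Atypical receptors, which bind chemokines without G protein signalling, were more abundant in sum, led by Ackr1. Ackr2 and Ackr4 stayed under 1 TPM, at most 0.47 and 0.14 TPM. The 3 that were tested gave 1 positive and 2 negative values (median −0.06, or 0.057 after median-of-ratios scaling) with none past the test. Ackr1, a binder of inflammatory chemokines on venules, was at 20.1, 15.1 and 8.69 TPM in controls and at 9.05, 11.04 and 35.8 TPM after radiotherapy, highest in radiotherapy 3. Ackr3, the scavenger of Cxcl12, differed little between libraries, with means of 5.49 ± 0.376 TPM for control and 5.21 ± 0.429 TPM for radiotherapy (SD, n = 3 each). Its log2 fold change was −0.06, with a 95% interval from −0.55 to 0.42, and 0.06 after median-of-ratios scaling. Ccrl2, which binds chemerin, was at 2.47, 2.96 and 6.93 TPM in controls and at 1.15, 1.49 and 1.91 TPM after radiotherapy. It was the receptor whose groups did not overlap, with a log2 fold change of −0.94 (SE 0.32) that did not pass (limma adjusted p = 0.977). The groups were apart for 9.24% of all tested genes, and 858 of the 11375 lay wholly lower after radiotherapy, as Ccrl2 did.

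Of 31 other chemokine ligands, 12 reached 1 TPM in some library, 10 were tested and none passed, with 5 positive and 5 negative values and a median of 0.00. Without control 1, 8 of the 10 were positive with a median of 0.36, and without control 3 the median was −0.30. Cxcl13, the B cell attractant, was at 36.6, 6.27 and 4.16 TPM in controls and at 9.88, 28.6 and 102 TPM after radiotherapy. Radiotherapy 3 and control 1 were again its highest libraries, and the log2 fold change was 1.52 (SE 0.88, 95% interval −0.47 to 3.51, limma adjusted p = 0.977). It was 2.39 without control 1, where the groups did not overlap (limma adjusted p = 0.847), and 0.68 without radiotherapy 3. Ccl21a and Ccl27a have near-identical copies, so their values are uncertain. Ccl21a, a ligand of Ccr7 on lymphatic vessels, gave 0.78 (SE 0.47), or 0.28 without control 3, and Ccl27a, a ligand of Ccr10, gave −0.04 (SE 0.30), a value that turned positive after each of 3 other scalings. Ccl19, which also binds Ccr7, gave −0.32 (SE 0.35), with −0.73 without control 3 and −0.055 without control 1. Ccl8 and Ccl12, relatives of Ccl2 and Ccl7 named after their values were seen, shared their library pattern in part. Ccl12 was at 17.2, 0.34 and 1.01 TPM in controls and at 2.48, 1.76 and 7.81 TPM after radiotherapy, and Ccl8 at 18.2, 3.77 and 2.25 TPM and at 4.42, 4.63 and 13.4 TPM.

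Genes upstream and downstream of the chemokines did not pass the test either. The 10 tested genes of NF-κB and inflammatory cytokine signalling had a median log2 fold change of −0.14, beside −0.11 for all tested genes. The median of the 10 was −0.031 after median-of-ratios scaling, 0.038 without radiotherapy 1 and −0.36 without radiotherapy 3. Nfkbia, the NF-κB inhibitor and target, was at 23.9, 25.7 and 24.7 TPM in controls and at 14.5, 22.6 and 28.5 TPM after radiotherapy (log2 fold change −0.22, SE 0.28). Of those 10, 7 were highest in radiotherapy 3 and 2 in control 1, beside 35.8% and 17.3% of all tested genes. The 4 tested proteases that shed or trim chemokines had a median of 0.00, with 68.0 TPM of the macrophage protease Ctss in control 1 and 1.15 to 8.61 TPM in the other 5 libraries. The 7 tested genes of receptor signalling were all negative, as were 67.9% of all tested genes; their median was −0.32, or −0.21 after median-of-ratios scaling, and 3 of the 7 were positive without control 1. They were led in abundance by the G protein subunit Gnai2, with means of 58.3 ± 21.0 TPM for control and 53.3 ± 13.8 TPM for radiotherapy (SD, n = 3 each), whose log2 fold change of −0.10 was 0.04 after median-of-ratios scaling.

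The genes most like a chemokine were those with the smallest root mean square difference from it in mean-centred log2(TPM + 1) over the 6 libraries. For Cxcl12 these were Pdia5, a protein disulfide isomerase, at 0.0451, and Ddit3, a stress-induced transcription factor, at 0.0553. For Cxcl14 they were the integrin gene Itga5, at 0.134, and the tetraspanin gene Cd63, at 0.154. For Ccl6 they were Lilrb4b, an inhibitory receptor of myeloid cells, at 0.158, and Hcls1, a haematopoietic adaptor, at 0.162. Because they were chosen for likeness over these same libraries, the genes nearest to Ccl6 shared its high values in control 1 and radiotherapy 3. Hcls1 was at 13.5 and 6.09 TPM there and between 1.68 and 2.56 TPM in the other 4 libraries.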

How the data were processed

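RNA was sequenced from 3 control and 3 radiotherapy gastrocnemius samples after TruSeq library preparation from total RNA, as the labels' protocols state. The authors deposited one table of TPM values, each column of which summed to 1000000 within 0.64. HISAT2, StringTie, RSEM and build mm9 are named in the submitters' processing notes; for roles, versions, annotation and strand setting, these sources say nothing. Overlapping genes can therefore share reads. TPM is relative and keeps no depth, so no counting interval can be given.

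Values were set to log2(TPM + 1) and tested with limma 3.58.1 in R 4.3.3 (mean-variance trend, two-sided, group as the only term), a procedure tested on simulated data. Fold changes on this scale are understated for low genes. The 10 genes and all lists were chosen with earlier results of these data known. Genes outside the 10 were named by list and mean TPM, up to 4 per list, unless stated otherwise. Genes most like a member were taken for the 3 members of highest mean TPM, leaving out predicted, clone-named and mitochondrial genes. Alternatives covered the pseudocount, filter, scaling, limma settings, a replicate block and each library left out. Figures were drawn with matplotlib 3.10.9.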

Additional observations from a re-analysis of the deposited data

How the results depend on the processing

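None of the 7 tested chemokines was called under any alternative that was run; over all of these alternatives their limma adjusted p-values ran from 0.319 (Ccl7 without control 1) to 1.00. Among all tested genes 0 were called with all 6 libraries (limma; 435 at an unadjusted p under 0.05) and 0 to 1 with a library left out: Gm55635 without control 1 and Gm24497 without radiotherapy 1, named after their values were seen. Leaving out control 1 and radiotherapy 3 together, chosen after seeing the data, gave 6 calls, none a chemokine. With a library left out, log2 fold changes ran from −0.20 to 1.90 for Ccl2, −0.54 to 0.74 for Ccl6, −0.17 to 2.003 for Ccl7, −0.82 to 0.73 for Ccl9, −0.033 to 0.76 for Cxcl14, 0.01 to 1.15 for Cxcl1 and −0.51 to −0.10 for Cxcl12; for other named genes they ran from −0.28 to 0.10 for Ccl27a, 0.68 to 2.39 for Cxcl13, 0.28 to 1.053 for Ccl21a, −0.73 to −0.055 for Ccl19, −0.55 to −0.030 for Cxcr4, −1.17 to −0.57 for Ccrl2, −0.62 to −0.20 for Jak1, −0.33 to 0.95 for Ccl8, −0.46 to 1.42 for Ccl12, −0.43 to 0.50 for Ackr1, −0.30 to 0.17 for Gnai2, −1.90 to 0.60 for Ctss, −0.43 to 0.037 for Nfkbia, −0.71 to 0.52 for Isg15 and −1.23 to 0.64 for Irf7. Median-of-ratios scaling, quantile normalization and removal of the 50 most abundant and mitochondrial genes turned Ccl6 to 0.063, 0.053 and 0.062, Ccl27a to 0.10, 0.13 and 0.068, Ackr3 to 0.057, 0.049 and 0.036, and Gnai2 to 0.038, 0.10 and 0.012. They moved the median of all tested genes from −0.11 to between −0.02 and 0.00. Without control 1 and radiotherapy 3 the value was 0.35 for Ccl6, 0.073 for Ccl9, 0.21 for Ccl27a, −0.18 for Ackr1, 0.028 for Ctss, 0.65 for Isg15 and 0.65 for Irf7. The cause of these sign changes was not tested. The labels number the replicates alike but state no pairing. Same-numbered libraries correlated between −0.11 and 0.02 across genes, and 0 of 3 controls correlated best with its own number. With the replicate block 0 genes were called. With 3 libraries per group these correlations cannot exclude a pairing or a shared batch, so it remains unknown. Cxcl9, Cxcl10 and Cx3cl1 were too low for the filter, and the number of reads behind their values is unknown.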
